A study of Arabidopsis thaliana with 15 samples.

Results

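In Arabidopsis leaves, 102 of 16174 genes measured had higher transcript levels in single leaves kept dark on a plant that stayed in light, while their levels in leaves of wholly darkened plants stayed near those of light. The genes were chosen from the deposited values. Each had a mean at least 1 log2 unit above light in individually darkened leaves at day 3 and at day 6, and a mean within 0.5 log2 units of light in darkened plants at both days. The differences between each darkened group and light, and between both treatments on the same day, were thus fixed by the choice. They are given below as a description, and nothing is read from a test of them. The tests that bear on these genes are those of day 6 against day 3 within each treatment, and of the difference between both day effects.

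Transcript levels were measured on 15 Affymetrix arrays of leaves of Arabidopsis thaliana, accession Col-0, with no transgene or mutation named in the labels, in 5 groups of 3 replicates. All plants grew at 22 °C with 8 h of white light of 180 µmol m-2 s-1 and 16 h of dark per day, and every replicate pooled 2 leaves from independent plants, harvested at noon. The control group was leaves in light at day 0. The darkened plants (DP) stood in dark boxes in the same chamber for 3 or 6 days, and the individually darkened leaves (IDL) were fully expanded leaves under foil-coated covers, 2 per plant, for 3 or 6 days, on rosettes that kept the normal light cycle. Light leaves were sampled at day 0 alone, so darkness and 3 or 6 more days of leaf age cannot be told apart in any comparison with light. DP and IDL of the same day share that age, but not the means of darkening, foil-coated covers on leaves against boxes around plants. Between them, the cover and the darkening of single leaves on a lit plant cannot be told apart. All comparisons with light use the same 3 light arrays.

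A leaf shaded on an otherwise lit plant is known to age quickly, to lose its chlorophyll and to export nitrogen and carbon to the rest of the plant. When the whole plant is darkened the same leaf is known to age more slowly and to keep its photosynthetic machinery longer. Autophagy, sugar and nitrate transporters, hydrolases and senescence regulators are known parts of the export from an ageing leaf. The annotation used here names 11 of the 102 genes, all of which are protein coding. The others are given by locus code, with no role.

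The arrays were comparable in scale, with median intensities of 18.31 to 19.56, and replicate arrays of a group correlated across probe sets at r of 0.984 to 0.991. Of 9 leaf photosynthesis markers 6 were measured, and their summed intensity was 8038 to 10534 in light, 1905 to 2100 in DP on day 3 and 1202 to 1325 on day 6, 1441 to 1539 in IDL on day 3 and 1246 to 1447 on day 6. The 2 guard cell markers measured, of 5, summed to 166 to 172 in light and to 64.9 to 96.4 in the 12 darkened arrays. SWEET11, the 1 phloem marker measured of 4, was at 588 to 688 in light and 785 to 1162 in the darkened arrays. The 2 root markers measured, of 3, summed to 21.6 to 29.8 in all arrays. No marker of epidermis, xylem or flower had a probe set with exactly 1 gene, which is what measured means here. The part of these shifts in the results was not tested, and in whole leaves fewer cells of a type and less RNA per cell cannot be told apart.

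The choice kept a minority of the genes that were higher in single darkened leaves. At both days, 666 genes were at least 1 log2 unit above light in IDL. Of these, 102 (15.3%) lay within the band in DP, 299 (44.9%) were at least 1 above light in DP at both days as well, and 4 were at least 1 below light in DP at both days. The other 261 fell between these limits. The reverse pattern, at least 1 above light in DP at both days with IDL inside the band, was met by 37 of 562 genes.

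**Figure D1:**
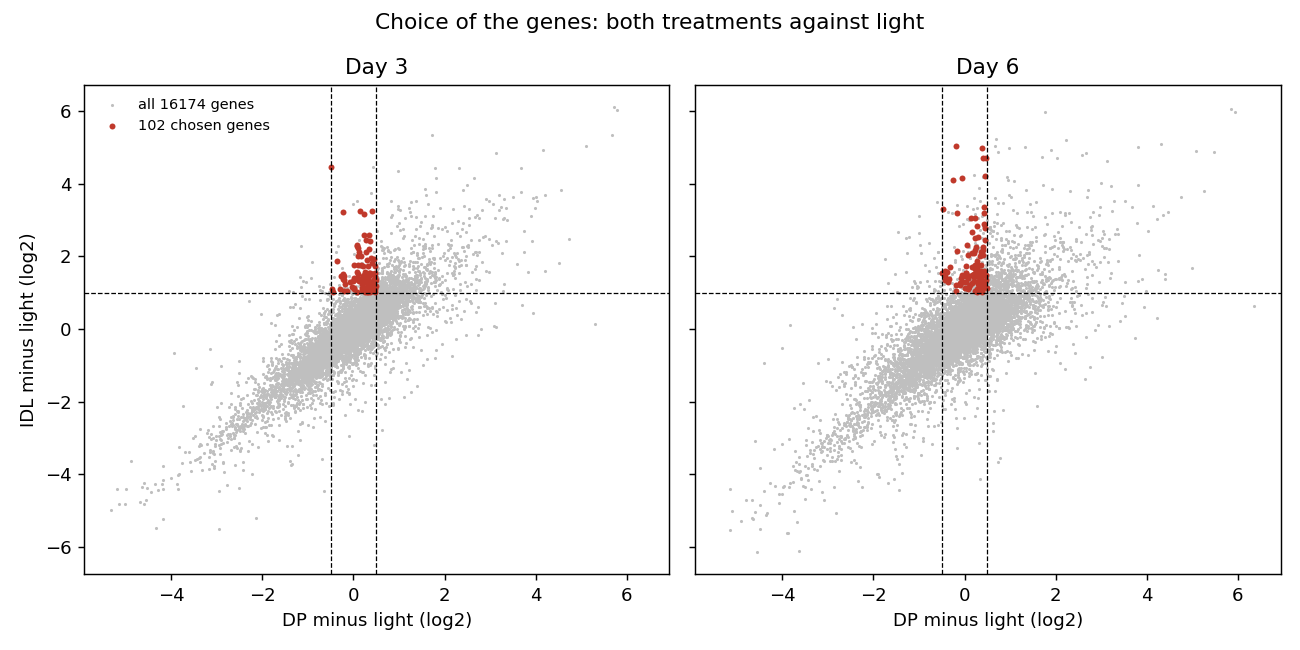
Each point is 1 gene, with the mean DP minus light difference on the x axis and the mean IDL minus light difference on the y axis (log2 units, 3 arrays per group), at day 3 and at day 6. The 102 genes fill the band between -0.5 and 0.5 in DP above 1 in IDL, most of them right of 0 in DP.

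Against light, the 102 genes were higher in IDL by 1.00 to 4.45 log2 units at day 3, with a median of 1.36, and by 1.01 to 5.03 at day 6, with a median of 1.51. Over all genes these medians were 0.06 and 0.03. At least 2 log2 units at both days were reached by 16 of the genes, and 45 stayed under 1.5 at both. In 101 of the 102 genes all 3 IDL arrays lay above all 3 light arrays and all 3 DP arrays of the same day, at both days. The exception was AT1G09500 at day 3, with IDL log2 values of 5.08, 5.26 and 4.19 against 4.45, 4.12 and 3.67 in DP and 3.49, 3.82 and 4.2 in light. Limma called all 102 genes higher in IDL than in light at both days, in a background of 39.6% of genes called at day 3 (20.8% higher, 18.8% lower) and 39.7% at day 6 (20.6% higher, 19.1% lower). It also called all 102 higher in IDL than in DP, where 16.7% of genes were called at day 3 (8.74% higher, 7.99% lower) and 29.1% at day 6 (15.1% higher, 13.9% lower). The choice of genes set these counts. It also favoured the gap between arrays in 101 of the 102 genes, whose share over all genes was not counted. Nothing is read from either.

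In darkened plants most of the genes had means somewhat above light, inside the band. The median DP minus light difference was 0.24 log2 units at day 3 and 0.24 at day 6, against 0.04 and 0.05 over all genes. At day 3 84 of the genes were above light in DP and at day 6 80 were, with 76 above it on both days and 14 below it on both. Limma called 16 genes higher and 2 lower in DP at day 3, where 35.2% of all genes were called (17.2% higher, 18% lower), and 17 higher and 5 lower at day 6, where 39.9% were called (20.3% higher, 19.6% lower). The calls fell on both days for 10 genes, 9 of them upward, and on neither for 72. These counts come from differences that the choice used, and nothing is read from them. The band bounds the difference of the means and does not show that DP and light were equal.

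Of the 102 genes, 12 had a light mean below 3.44 log2 units, the lower quartile of the light means. No background values or detection calls were used, so for these 12 the size of the difference from light is uncertain and no fold is given. Their median DP minus light difference was 0.31 at day 3 and 0.38 at day 6, against 0.23 and 0.22 in the other 90 genes. Over all 4045 genes of that lowest quartile it was 0.08 and 0.09.

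At the limits of the choice, AT1G09500 (1.00), AT4G16750 (1.01) and AT2G40925 (1.01) were just inside the IDL limit by the smaller of their day differences. AT1G20100 (0.99), AT1G28760 (0.98) and AT5G63490 (0.97) were just outside it. On the DP side, AT5G39030 at -0.50, AT5G51620 at 0.50 and AT2G18600 at 0.49 were just inside. STZ, which encodes a zinc finger repressor of stress responses, was just outside at 0.50 in DP, with IDL differences of 1.80 at day 3 and 3.00 at day 6.

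The largest difference from light belonged to AT1G07400. Its log2 values were 4.27, 4.38 and 4.71 in light, 3.97, 4.24 and 3.69 in DP at day 3, and 4.44, 4.09 and 4.27 in DP at day 6. In IDL they were 9.40, 8.06 and 9.26 at day 3 and 9.47, 9.45 and 9.53 at day 6. The IDL arrays stood far above all others, 21.9-fold above light at day 3 and 32.7-fold at day 6, while DP lay 0.49 and 0.19 log2 units below light.

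Hydrolases and enzymes of small molecules came next among the named genes. AMY1 encodes a secreted alpha-amylase, an enzyme that cuts starch chains. AMY1 had log2 values of 4.57, 4.70 and 4.76 in light, 4.06, 5.25 and 4.04 in DP at day 3, and 4.04, 4.43 and 4.84 in DP at day 6. In IDL AMY1 was at 8.13, 7.73 and 7.87 at day 3 and at 8.72, 8.80 and 8.78 at day 6. The IDL arrays did not overlap with the rest, at 9.38-fold and 17.0-fold the light level, and DP replicate 2 at day 3 was the highest array outside IDL.

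CHAT encodes the acetyltransferase that makes the leaf volatile (Z)-3-hexenyl acetate, part of the scent of a cut leaf. CHAT had log2 values of 4.55, 4.51 and 4.35 in light, 4.43, 5.24 and 4.18 in DP at day 3, and 5.03, 3.93 and 4.27 in DP at day 6. In IDL CHAT was at 7.92, 7.48 and 7.76 at day 3 and at 8.76, 8.52 and 8.55 at day 6. These are 9.50-fold and 17.6-fold the light level, with no overlap. As with AMY1, replicate 2 of DP at day 3 was above its group.

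PAP20 belongs to the purple acid phosphatases, which free phosphate from organic compounds. Its log2 values in light were 3.23, 3.16 and 3.76, with a mean below the light lower quartile. In DP PAP20 was at 3.54, 3.59 and 3.69 at day 3 and at 3.56, 3.79 and 3.96 at day 6, and in IDL at 6.19, 5.63 and 6.10 and then 8.29, 8.14 and 8.68. All IDL arrays lay above the others. The means were 2.59 log2 units above light at day 3 and 4.98 at day 6, both of uncertain size, and both IDL days were apart from each other.

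BGLU41, a beta-glucosidase by its name, differed less. Its log2 values were 3.46, 3.49 and 3.74 in light, 4.01, 3.74 and 3.83 in DP at day 3 and 3.46, 3.70 and 3.78 in DP at day 6. The IDL arrays stood at 4.82, 4.89 and 4.43 on day 3 and at 4.61, 4.53 and 4.81 on day 6. Both IDL groups were about 1 unit above light, by 1.15 and 1.09. Of the 24 measured genes named as beta-glucosidases, a family picked after BGLU41 had been seen, limma called 4 higher and 8 lower in IDL at day 3, and 3 higher and 6 lower at day 6. In DP 3 were higher and 6 lower at day 3, and 2 higher and 7 lower at day 6. Over all genes, 20.8% were higher and 18.8% lower in IDL at day 3, 20.6% and 19.1% at day 6, 17.2% and 18% in DP at day 3, and 20.3% and 19.6% at day 6. BGLU16 was higher than light in all darkened groups, by 2.38 and 1.91 in DP and 2.26 and 1.93 in IDL.

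**Figure D2:**
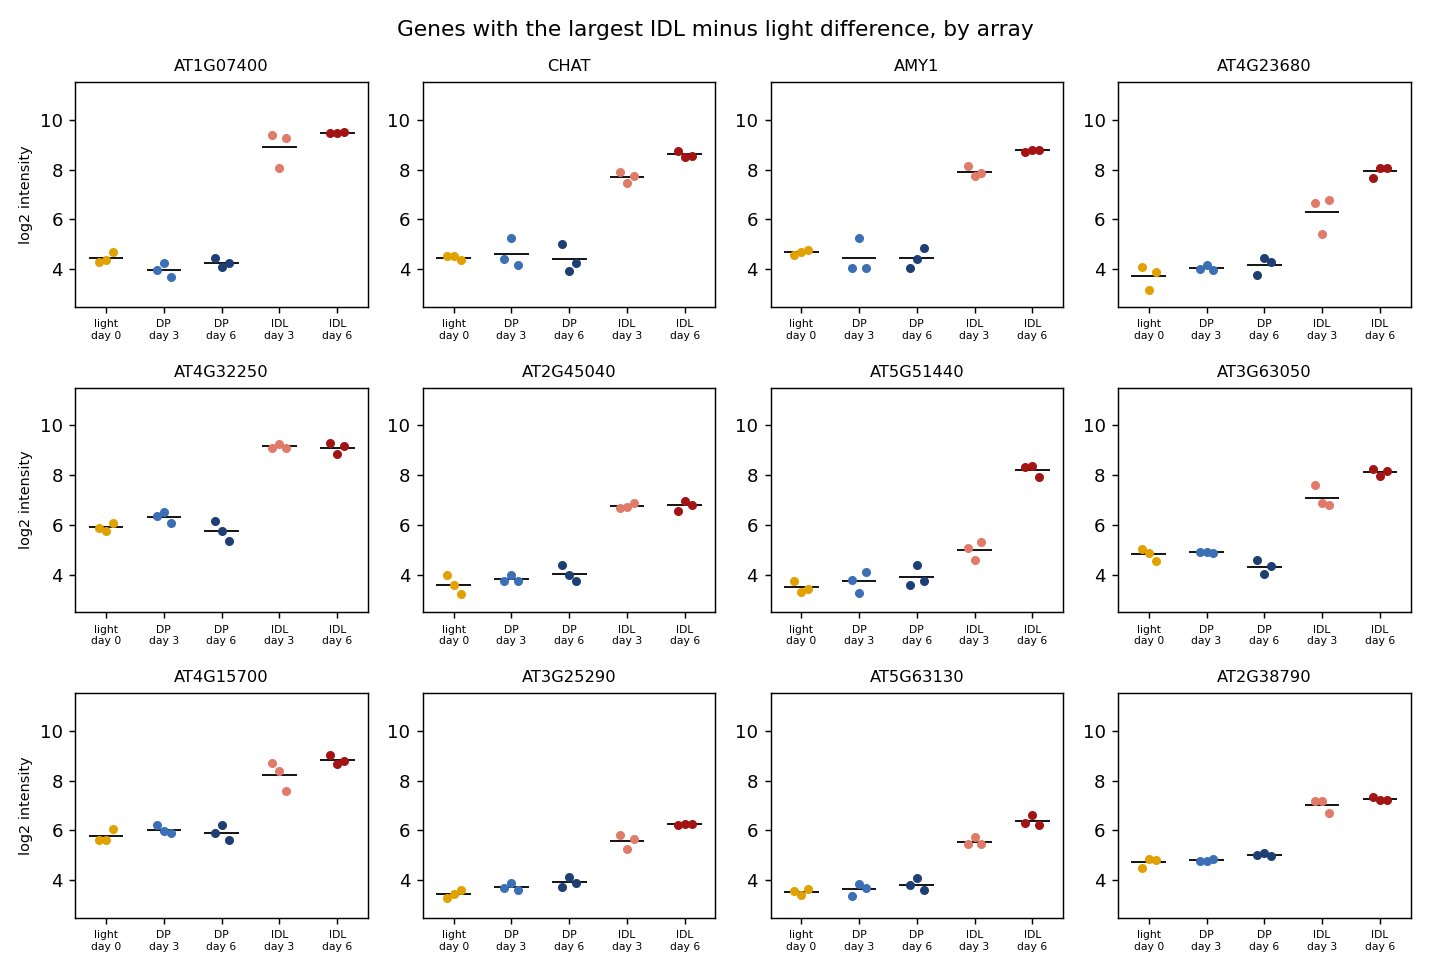
Log2 intensity of each array in the 5 groups for the 12 genes with the largest mean IDL minus light difference among those at or above the light lower quartile, with a bar at each group mean of 3 arrays. In each of the 12 panels the 6 IDL arrays lie above the 9 light and DP arrays.

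Transporters formed the next group. SFP1 encodes a sugar porter known to be induced in ageing leaves. SFP1 had log2 values of 7.61, 7.49 and 7.78 in light, 7.87, 8.08 and 7.5 in DP at day 3 and 8.09, 7.51 and 7.93 in DP at day 6. Single darkened leaves had 8.72, 9.13 and 9.10 on day 3 and 8.98, 9.06 and 9.10 on day 6. SFP1 was 2.56-fold and 2.68-fold above light in IDL, and its DP arrays overlapped with light.

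SFP2, the neighbouring gene of the same family, had another pattern. By limma it was higher than light in DP, by 0.64 ± 0.13 log2 units at day 3 (SE, adjusted p = 0.000325) and 0.56 ± 0.13 at day 6 (adjusted p = 0.00107). In IDL SFP2 differed from light by -0.19 ± 0.13 at day 3 (adjusted p = 0.263) and fell by 0.68 ± 0.13 at day 6 (adjusted p = 0.000136). Between treatments SFP2 differed in IDL from DP by -0.83 and -1.24 log2 units at days 3 and 6, and SFP1 by 1.17 and 1.2. Probe sequences were not used here, so signal shared between both genes was not tested.

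Both members of the nitrate and peptide transporter family had moderate differences. NPF6.2, a nitrate transporter of the leaf stalk also called NRT1.4, had log2 values of 9.85, 9.49 and 9.39 in light, 9.80, 9.83 and 9.70 in DP at day 3 and 9.93, 9.51 and 9.66 in DP at day 6. In IDL NPF6.2 was at 10.62, 10.67 and 10.61 at day 3 and at 10.62, 10.86 and 10.90 at day 6, differences of 1.06 and 1.22 from light with no overlap. NPF5.14 was at 6.33, 6.54 and 6.68 in light, 6.26, 6.70 and 6.05 in DP at day 3 and 6.81, 6.68 and 6.04 in DP at day 6. On day 3 of IDL the values were 7.86, 7.69 and 7.72, and on day 6 7.91, 7.87 and 8.17. Its IDL means were 1.24 and 1.47 above light.

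That transporter family was picked after these members had been seen. Its counts hold both members, which the choice fixed as higher in IDL, and in DP more of the family were lower than higher. Of 13 measured NPF genes, the members included, limma called 3 higher and 4 lower in IDL at day 3, and 3 higher and 5 lower at day 6. In DP 1 was higher and 6 were lower at day 3, and 2 were higher and 6 lower at day 6. The shares over all genes, given for the beta-glucosidases, were 17.2% to 20.8% higher and 18% to 19.6% lower in these comparisons. NPF5.13, the neighbour of NPF5.14, differed from light by 0.18 and 0.16 in IDL and 0.20 and 0.25 in DP, none of them called. NPF2.11, a glucosinolate transporter, was the third gene higher in IDL, by 1.16 and 0.45 log2 units, and in DP it fell by 1.15 at day 3 and 0.92 at day 6.

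ATG101 encodes a subunit of the kinase complex that starts autophagy, in which a cell digests its own parts. Its log2 values were 6.51, 6.47 and 6.52 in light, 7.07, 7.10 and 6.71 in DP at day 3 and 6.98, 6.75 and 6.72 in DP at day 6. The IDL arrays stood at 7.90, 7.89 and 7.75 on day 3 and at 7.61, 7.74 and 7.84 on day 6. The DP arrays of ATG101 lay above light too, by 0.46 and 0.31, within the band that the choice allowed, and IDL lay above DP. Of the 14 genes measured from a list of 36 autophagy genes that does not hold ATG101, limma called all 14 higher in IDL at both days, with medians of 1.12 and 1.11, where 20.8% and 20.6% of all genes were called higher. In DP 11 were higher and 1 lower at day 3, and 8 higher and 1 lower at day 6, with medians of 0.55 and 0.39. Over all genes 17.2% were higher and 18% lower in DP at day 3, and 20.3% and 19.6% at day 6.

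ATG1A and ATG1B are kinases of the same complex and belong to that list. ATG1A fell in DP, by 0.52 at day 3 and 0.69 at day 6, and was higher than light in IDL by 0.45 and 0.78. ATG1B differed from light in DP by 0.25 and -0.05, neither of them called, and was higher in IDL by 1.00 and 0.86. ATG13B, a partner of the kinase, was higher in IDL by 0.69 and 0.56.

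The named regulators were AtS40-3 and AP2C1. AtS40-3 belongs to a family of senescence regulators and was dim, at 3.29, 2.95 and 3.50 in light, 3.44, 3.70 and 3.59 in DP at day 3 and 3.43, 3.73 and 3.58 in DP at day 6. Single darkened leaves had 4.37, 4.26 and 4.33 on day 3 and 4.57, 4.78 and 4.29 on day 6. AP2C1, a phosphatase that acts on stress MAP kinases, was at 4.55, 4.35 and 4.26 in light, 4.14, 4.72 and 4.2 in DP at day 3 and 4.95, 4.42 and 4.69 in DP at day 6. On day 3 of IDL the values were 5.58, 5.28 and 5.77, and on day 6 5.83, 6.19 and 5.64. Their IDL arrays did not overlap with light or DP, at means 1.07 and 1.3 above light for AtS40-3 and 1.15 and 1.5 for AP2C1. A list of 41 senescence regulators and markers, which holds neither gene, had 6 measured. Limma called 5 of the 6 higher than light in DP and in IDL at both days. Over all genes 17.2% to 20.8% were higher in these comparisons. Between treatments it called none higher in IDL and 1 lower at each day, with medians of -0.06 and -0.11. Over all genes 8.74% were higher and 7.99% lower at day 3, and 15.1% and 13.9% at day 6.

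U11/U12-65K, a protein of the minor spliceosome, was at 6.5, 5.88 and 6.56 in light, 6.63, 6.77 and 6.57 in DP at day 3 and 6.80, 6.62 and 6.65 in DP at day 6. The IDL arrays stood at 7.28, 7.34 and 7.52 on day 3 and at 7.35, 7.35 and 7.48 on day 6. Light replicate 2 was low against the other light arrays of this gene, and the IDL means were 1.07 and 1.08 above light.

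**Figure D3:**
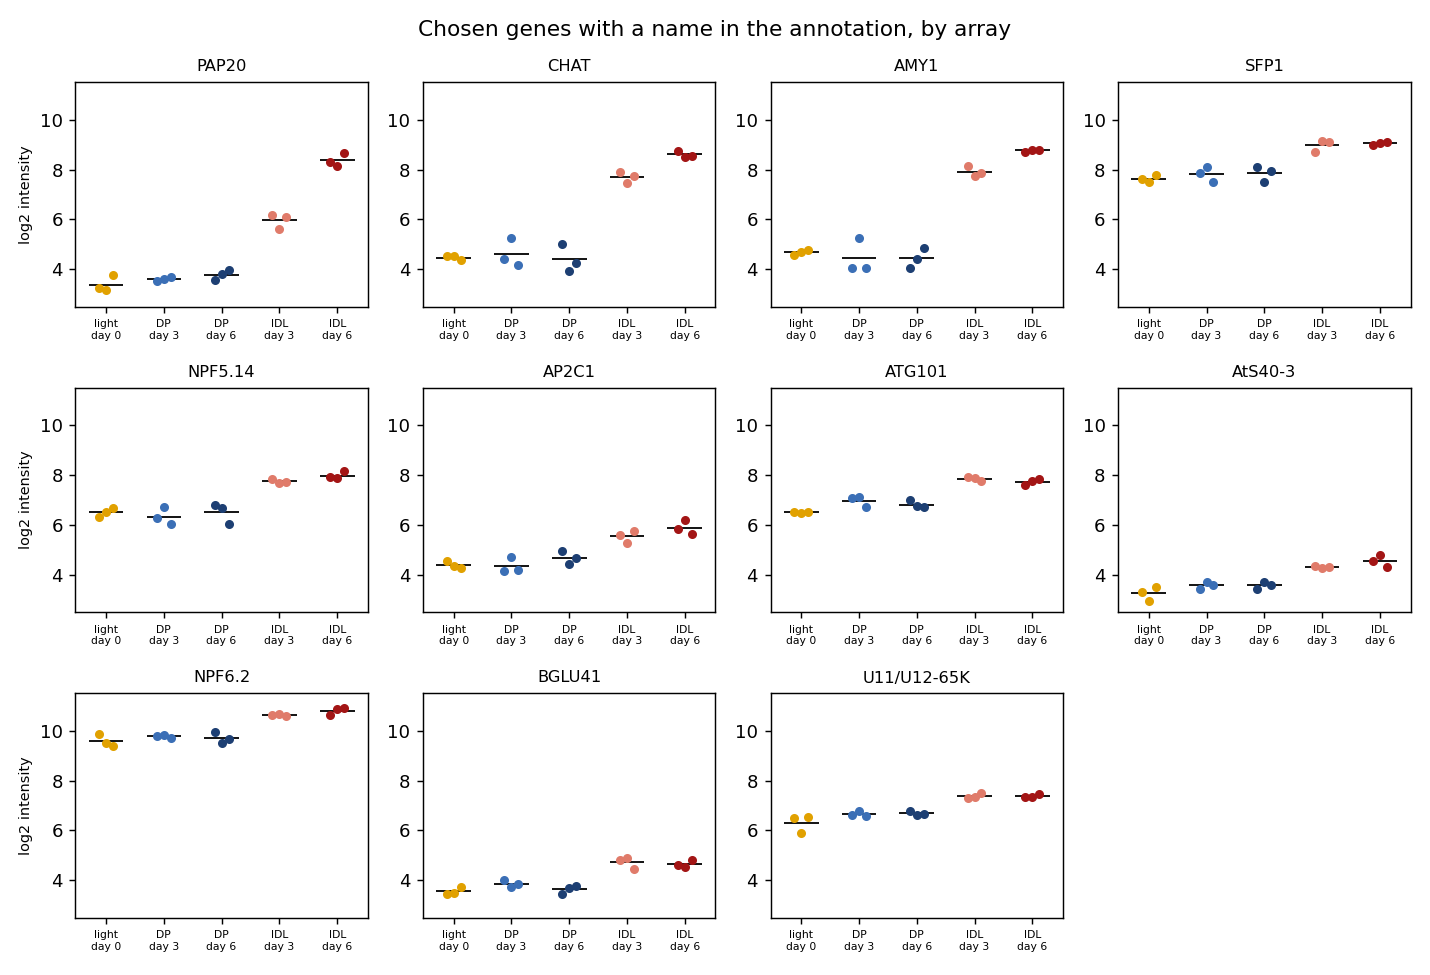
Log2 intensity of each array in the 5 groups for the 11 genes among the 102 that are named in the text, with a bar at each group mean of 3 arrays. The IDL arrays lie above light and DP in every panel. The IDL means lie over 3 log2 units above the light mean for AMY1 and CHAT, and 2.59 and 4.98 above it for PAP20. For the others they lie about 1 to 1.5 above it.

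Several genes given here by locus code alone also had differences of 2 log2 units or more at both days. AT4G32250 was at 5.90, 5.77 and 6.07 in light, 6.36, 6.52 and 6.08 in DP at day 3 and 6.16, 5.74 and 5.34 in DP at day 6. Single darkened leaves had 9.09, 9.25 and 9.10 on day 3 and 9.28, 8.84 and 9.18 on day 6. It was 9.42-fold and 9.11-fold above light, with IDL days that overlapped. AT2G45040 was at 3.99, 3.57 and 3.24 in light, 3.76, 3.99 and 3.73 in DP at day 3 and 4.39, 3.97 and 3.74 in DP at day 6. On day 3 of IDL the values were 6.69, 6.73 and 6.86, and on day 6 6.58, 6.97 and 6.82.

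AT4G15700 had log2 values of 5.63, 5.62 and 6.04 in light, 6.22, 5.98 and 5.91 in DP at day 3 and 5.91, 6.2 and 5.63 in DP at day 6. The IDL arrays stood at 8.70, 8.39 and 7.58 on day 3 and at 9.03, 8.65 and 8.79 on day 6. Replicate 3 of IDL at day 3 was about 1 unit below its group, still above all light and DP arrays. AT2G38790 was at 4.49, 4.87 and 4.81 in light, 4.76, 4.79 and 4.87 in DP at day 3 and 5.01, 5.08 and 4.96 in DP at day 6. Single darkened leaves had 7.17, 7.17 and 6.72 on day 3 and 7.33, 7.20 and 7.22 on day 6. Its DP arrays overlapped with light on day 3 and all lay above light on day 6.

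AT3G25290 was at 3.28, 3.46 and 3.63 in light, 3.67, 3.89 and 3.61 in DP at day 3 and 3.75, 4.12 and 3.88 in DP at day 6. On day 3 of IDL the values were 5.81, 5.24 and 5.65, and on day 6 6.21, 6.26 and 6.26. AT5G63130 was at 3.58, 3.41 and 3.64 in light, 3.35, 3.87 and 3.70 in DP at day 3 and 3.79, 4.07 and 3.60 in DP at day 6. The IDL arrays stood at 5.46, 5.73 and 5.46 on day 3 and at 6.30, 6.62 and 6.22 on day 6. In both genes the IDL arrays of day 6 were all above those of day 3.

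Between day 3 and day 6 of single-leaf darkness, 22 of the 102 genes rose and none fell by limma at an adjusted p under 0.05. Of all genes 4.82% were called higher and 3.83% lower in this comparison, 8.64% together. At an unadjusted p under 0.05, 33 of the 102 were higher and 3 lower. The median difference over the 102 genes was 0.18 log2 units, with a range of -0.52 to 3.40, and 76 lay above 0, against a median of -0.04 over all genes. The 299 genes that were at least 1 above light in both treatments had 24 higher, 29 lower and a median of -0.07. The choice set a floor under both days and did not fix the sign of this difference.

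The largest rises were late ones. AT5G55150 was at 3.54, 3.26 and 3.49 in light, 3.59, 3.66 and 3.91 in DP at day 3 and 4.07, 4.0 and 3.62 in DP at day 6. In IDL AT5G55150 went from 4.70, 4.34 and 5.14 at day 3 to 8.43, 8.02 and 7.93 at day 6, a rise of 3.40 ± 0.18 log2 units (SE, limma adjusted p = 2.11e-11). The 3 arrays of day 6 were all far above the 3 of day 3, which were themselves above light and DP.

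AT5G51440 had the same course. It was at 3.77, 3.29 and 3.45 in light, 3.79, 3.28 and 4.12 in DP at day 3 and 3.61, 4.39 and 3.73 in DP at day 6. The IDL arrays had 5.09, 4.59 and 5.31 at day 3 and 8.34, 8.35 and 7.91 at day 6. AT5G51440 rose by 3.20 ± 0.22 log2 units (adjusted p = 1.58e-09), with no overlap between days.

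PAP20 rose by 2.40 ± 0.17 log2 units between the IDL days (adjusted p = 3.12e-09). AT4G23680 was at 4.07, 3.18 and 3.89 in light, 4.01, 4.17 and 3.99 in DP at day 3 and 3.76, 4.45 and 4.27 in DP at day 6. Single darkened leaves had 6.65, 5.43 and 6.79 on day 3 and 7.66, 8.07 and 8.05 on day 6. Its rise was 1.63 ± 0.27 (adjusted p = 0.000321), with replicate 2 of IDL at day 3 more than 1 unit below its group.

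AT4G12735, dim in light at 3.44, 3.17 and 3.64, was at 3.44, 3.68 and 3.99 in DP at day 3 and 3.84, 4.0 and 3.69 in DP at day 6. In IDL it was at 5.44, 5.14 and 5.38 at day 3 and 6.69, 7.15 and 6.44 at day 6, a rise of 1.44 ± 0.17 (adjusted p = 4.76e-06). The days did not overlap. The other 17 genes that rose did so by 0.49 to 1.37 log2 units.

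CHAT rose by 0.89 ± 0.23 (adjusted p = 0.0176) and AMY1 by 0.86 ± 0.23 (adjusted p = 0.0223) between the IDL days, and in both genes all day 6 arrays were above all day 3 arrays. The call of CHAT was lost without IDL replicate 2 at day 3 (adjusted p = 0.0965) or replicate 1 at day 6 (adjusted p = 0.0807). That of AMY1 was lost without any 1 of 5 of the 6 IDL arrays, replicates 2 and 3 of day 3 and 1, 2 and 3 of day 6, at adjusted p values of 0.0571 to 0.101, while its rise stayed at 0.77 to 0.88. AT2G04050 and AT3G46930 each lost their call without 1 IDL array of day 3, replicate 2 for the former (adjusted p = 0.0547) and replicate 1 for the latter (adjusted p = 0.0556). AT4G16750 lost it without IDL replicate 2 or 3 of day 3 or replicate 3 of day 6 (adjusted p of 0.0566 to 0.0976), and AT5G27690 without replicate 2 of day 3 or replicate 1 of day 6 (0.0501 and 0.0629). AT1G10040 lost it without DP replicate 1 of day 3, IDL replicate 2 or 3 of day 3, or IDL replicate 1 or 3 of day 6 (adjusted p of 0.0510 to 0.161). The calls of AMY1 and AT1G10040 were also lost in limma with an intensity trend and robust prior.

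**Figure D4:**
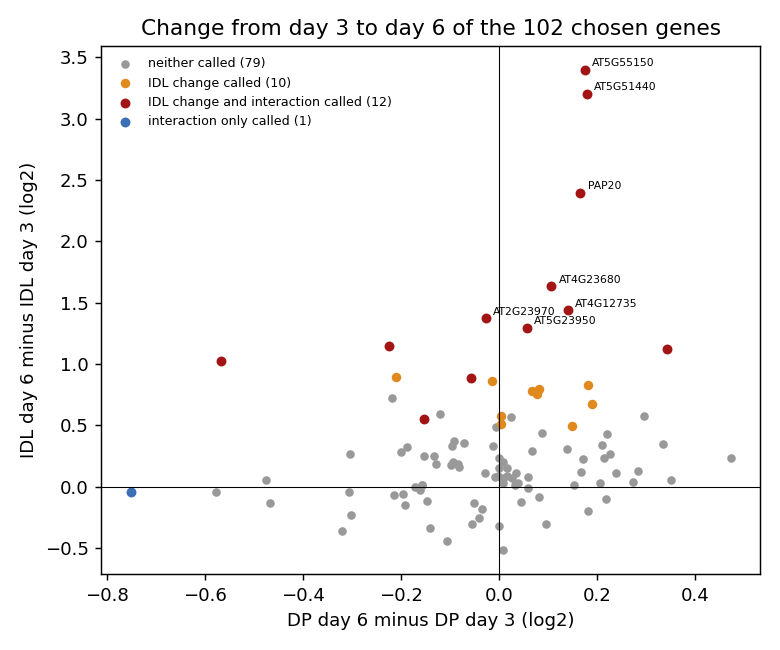
Each point is 1 of the 102 genes, with the day 6 minus day 3 difference in DP on the x axis and in IDL on the y axis (log2 units, means of 3 arrays), marked by the tests it passed in limma. The points spread from -0.52 to 3.40 in IDL and from -0.75 to 0.47 in DP.

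Between the days in darkened plants the band limits any difference of these genes to 1 log2 unit. Of all genes, 4.56% were called between the DP days, 2.03% higher and 2.53% lower. Limma called 1 of the 102 genes, AT5G39030, and none higher. At an unadjusted p under 0.05, 2 were higher and 5 lower. The median difference was 0.00 and the range -0.75 to 0.47.

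AT5G39030 was at 5.90, 6.29 and 6.23 in light and went from 6.27, 6.65 and 6.25 in DP at day 3 to 5.76, 5.58 and 5.59 at day 6. It fell by 0.75 ± 0.13 log2 units (limma adjusted p = 0.00108), with no overlap between the DP days. In IDL its values were 7.74, 7.69 and 7.69 at day 3 and 7.60, 7.75 and 7.65 at day 6. The count of 1 became 4 without DP replicate 1 at day 6, and 2 without replicate 1 or 3 of light, replicate 3 of DP at day 3, replicate 1 of IDL at day 3 or replicate 2 of IDL at day 6, all of them falls.

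The difference between both day effects, the interaction of treatment and day, was called for 13 of the 102 genes, all upward, meaning that day 6 minus day 3 was higher in IDL than in DP, in a background of 5.36% of all genes, 3.13% upward and 2.23% downward. None was called in the other direction, and at an unadjusted p under 0.05 there were 31 upward and 1 downward. The median over the 102 genes was 0.18 log2 units and 77 lay above 0. The 299 genes higher in both treatments had 9 upward, 27 downward and a median of -0.16. The choice did not fix the sign of this difference in the 102 genes. It did hold the DP part to 1 log2 unit in size, while the IDL part had no upper limit. Neither all genes nor the 299 were held to that band, so their shares are no like-for-like reference.

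AT5G55150 had the largest interaction, at 3.22 ± 0.25 log2 units (SE, adjusted p = 4.18e-08), followed by AT5G51440 at 3.03 ± 0.31 (adjusted p = 1.94e-06) and PAP20 at 2.23 ± 0.24 (adjusted p = 4.26e-06). AT3G63050 was next, at 1.59 (adjusted p = 0.000376). Its log2 values were 5.04, 4.86 and 4.54 in light, 4.93, 4.9 and 4.87 in DP at day 3 and 4.60, 4.04 and 4.36 in DP at day 6. On day 3 of IDL the values were 7.60, 6.89 and 6.80, and on day 6 8.24, 7.98 and 8.14. All day 6 arrays of AT3G63050 lay below those of day 3 in DP and above those of day 3 in IDL. For AT4G23680 the interaction of 1.53 (adjusted p = 0.0187) lost its call without DP replicate 1 at day 6 (adjusted p = 0.0546). It also lost its call in limma with an intensity trend and robust prior. That of AT5G39030, 0.71, lost it without DP replicate 2 at day 3 (adjusted p = 0.0630) or IDL replicate 2 at day 6 (adjusted p = 0.0558).

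Of the 102 genes, 12 were called both in IDL between the days and in the interaction, 10 in IDL between the days alone and 1, AT5G39030, in the interaction without the IDL change. The other 79 were called in neither. For those 79 a p that missed the threshold does not show that their level was the same on both days.

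To read the same pattern in arrays that had no part in the choice, the genes were chosen again on 2 replicate numbers and their values read in the arrays of the third. Without replicate 1, 81 genes were chosen, and in its arrays all 81 lay above light in IDL at both days, 69 by at least 1 log2 unit. With replicate 2 held out 97 were chosen, of which 97 lay above light and 79 by at least 1, and with replicate 3 held out 86 were chosen, of which 85 lay above light and 57 by at least 1. The IDL array also lay above the DP array at both days for 81 of 81, 96 of 97 and 86 of 86 genes. The shares of all genes that did so in the same arrays were not counted, so these counts have no background beside them.

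In the same held-out arrays DP lay inside the band at both days for 45 of 81, 43 of 97 and 51 of 86 genes, and all limits together were met by 33, 35 and 30. In the held-out arrays the median DP minus light difference was 0.26 and 0.39 at days 3 and 6 for replicate 1, 0.30 and 0.27 for replicate 2, and 0.09 and 0.07 for replicate 3. A difference of 1 array from 1 array carries more spread than one of means of 3. Of the 102 genes, 42 stayed in the choice whichever of the 15 arrays was left out, and 60 left it at least once.

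**Figure D5:**
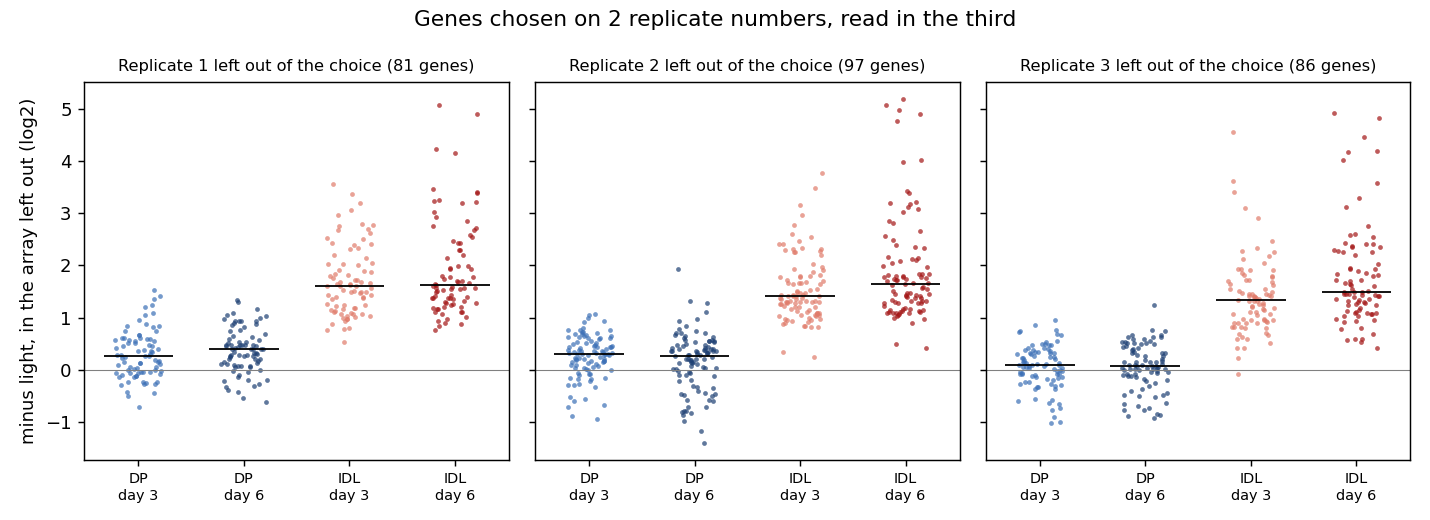
Differences from light in the arrays of 1 replicate number for genes chosen on the other 2, in DP and IDL at days 3 and 6 (log2 units, 1 array against 1), for replicate 1, 2 and 3 held out. The IDL medians stay between 1.33 and 1.64 while the DP medians lie between 0.07 and 0.39.

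Some of the genes lie close to each other on a chromosome, by their order in the RefSeq annotation. AT2G41380 and AT2G41410 have 2 measured genes between them, AT3G04010 and AT3G04040 have 2, AT3G14780 and AT3G14830 have 1, and AT3G56250 and AT3G56310 have 4. These are the pairs with few measured genes between them, given as positions with no test.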

How the data were processed

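The deposited values were linear intensities from 5.19 to 6632.8, 1 for each probe set on each array. They were made with oligo, per the submitters' processing notes. The sources used here do not state its version or how background, normalization and summary were done. Detection calls were not used. Precision is limited by having 3 arrays in a group.

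Log2 was taken here of the deposited intensities. Of 26676 probe sets 16179 had exactly 1 gene, 588 several and 9909 none, which gave 16174 genes tested. Genes without such a probe set in this annotation count as not measured. Among the gene lists, those of jasmonate (27 genes), salicylate and defence (19), abscisic acid (29) and phosphate (10) had no gene measured. Whether these genes lie on probe sets with no gene named was not checked. RefSeq (TAIR10.1) matched 16161 probe sets, by gene identifier first and by locus code where that failed, and gave symbols and synonyms. No coordinates or sequences are given, and promoter motifs were not analysed here.

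All 15 arrays were fitted with limma 3.58.1 in R 4.3.3, 1 mean per group, with eBayes (prior of 10.5 degrees of freedom) and Benjamini-Hochberg adjustment over all genes of a comparison, two-sided, at 0.05. The fit was tested on simulated data. Alternatives were a threshold of 0.01, no dim genes, other scalings, variance models and array weights, a fit of just the compared arrays, a replicate block, and leaving out single arrays. The choice of genes was repeated with other limits and scales.

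The genes and gene lists were chosen with earlier results of these data known. Genes with values in each array are the 12 largest differences from light among genes at or above the light lower quartile. The genes named here and up to 5 called per direction and test are given in the same way. Genes nearest the limits are given by their differences from light.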

Additional observations from a re-analysis of the deposited data

Results flagged for a closer look

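The difference between the day effects of both treatments was itself past the threshold in limma for 13 of the 102 genes. Of all genes 5.36% were called, 3.13% upward. The choice held the DP part of this difference to 1 log2 unit in the 102 genes, so these shares are no like-for-like reference. On the log2 scale it was 3.22 for AT5G55150, 3.03 for AT5G51440, 2.23 for PAP20, 1.59 for AT3G63050, 1.53 for AT4G23680, 1.4 for AT2G23970, 1.37 for AT3G14780, 1.3 for AT4G12735, 1.24 for AT5G23950, 0.94 for AT3G05400, 0.78 for AT4G00700, 0.71 for AT5G39030 and 0.71 for AT5G27690. In all 13 the day 6 minus day 3 difference was higher in single darkened leaves than in darkened plants. For AT5G39030 the difference came with a fall in darkened plants and no called change in single leaves. Of the 13 calls, 8 held under all 23 alternatives and 5 were lost under at least 1.

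Outside the genes tested, 97 of the 10497 probe sets with several genes or none met the same limits, 94 with no gene in the annotation and 3 with several. They are counted because they carry the same pattern in data that no comparison above uses.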

How the results depend on the processing

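Of the 36 calls of single genes in the tests of day and interaction, 24 held under all 23 alternatives and 12 were lost under at least 1, and none reversed its sign. In the interaction, AT4G00700 lost its call under 12 alternatives and AT5G27690 under 10. The count of 22 genes called between the IDL days ranged from 16 to 24 with 1 array left out, 16 of them without IDL replicate 2 at day 3. The count of 1 between the DP days ranged from 1 to 4 with 1 array left out, and was 3 without dim genes, 3 with an intensity trend and robust prior, and 2 with only the arrays compared. The interaction count of 13 was 8 at a threshold of 0.01 and ranged from 11 to 15 with 1 array left out. With the replicate block the 3 counts were 22, 2 and 14. Over 30 pairs of arrays, same-numbered arrays had deviations from their group means that correlated at r of -0.08 to 0.09, none over 0.1. For these low correlations the numbers were not taken as pairs. Of the 15 arrays, 9 correlated best with their own number, so a weak pairing remains possible.

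The number of genes chosen was 66 with 16 added before log2 (43 shared with the 102), 31 with an IDL limit of 1.5, and 28 with a DP band of 0.25, and it ranged from 93 to 105 with 1 array left out. The share of chosen genes with IDL above DP at both days in the held-out arrays ranged from 99.0% to 100% over the 3 replicate numbers. That share over all genes was not counted. The choice of genes thus depends on its limits and on the log scale. The cause of these shifts was not tested beyond the fewer genes or arrays that each setting leaves. Dim genes have an unknown background, so the size of their differences from light is uncertain.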

Other observations

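SWEET4, a sugar exporter from the sugar and starch list and no member of the 102, took opposite directions in the treatments at day 3. By limma it fell in darkened plants by 1.32 ± 0.19 log2 units (SE, adjusted p = 5.47e-06) and was higher than light in single darkened leaves by 1.03 ± 0.19 (adjusted p = 0.000104). At day 6 its differences from light were -0.45 and 0.21, neither of them called. It was named after its values had been seen.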
